A study of Mus musculus with 18 samples.

Results

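TWEAK induced 261 genes to a similar extent at 6 h and 24 h in murine renal tubule cells. On the log2 scale, 54 of them kept most of that induction when the kinase NIK was inhibited. These 54 genes are described here, out of 15521 genes tested. They were chosen by measured values of the same 18 samples. Levels were expressed as CPM, the reads of a gene scaled to all counted reads of the sample, and 0.1 CPM was added to each group mean. A gene belonged to the set if it had over 10 reads in at least 4 of the 18 samples, a mean level of at least 1 CPM with TWEAK, and a level at least 1.5-fold that with vehicle at both times. The fold induction at 24 h had to lie between 0.77 and 1.5 times that at 6 h. Finally, NIK SMI1 had to remove less than 40% of the induction at both times, measured as the log2 ratio of TWEAK to TWEAK with NIK SMI1 divided by the log2 ratio of TWEAK to vehicle. This percentage is called the share removed below, and a negative share means that the level was higher with NIK SMI1 than with TWEAK alone. Of the other sustained genes, 116 had a share of 40% or more at both times and 91 at 1 time.

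RNASeq was performed on primary RPTEC, renal proximal tubulo-interstitial epithelial cells of C57BL/6 mice from a commercial supplier, grown in culture. The 3 treatments were DMSO as vehicle, recombinant mouse TWEAK (100 ng/mL), and the same dose of TWEAK together with NIK SMI1 (3 µM), an inhibitor of the kinase activity of NIK. RNA was collected at 6 h and 24 h, which gave 6 groups of 3 samples. No group received NIK SMI1 alone, so its effect without TWEAK was not measured. The labels do not say whether the 3 samples of a group were separate cultures or animals, and p-values therefore measure the spread between these samples, which may be technical.

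TWEAK is a cytokine of the TNF family that acts through its receptor Fn14, which recruits TRAF adaptors and can switch on both arms of NF-κB signaling. In the canonical arm, an IKK complex marks the inhibitory IκB proteins for degradation and frees dimers such as p65 and p50. In the non-canonical arm, NIK accumulates once it is released from a TRAF and cIAP complex that otherwise keeps it degraded, and it drives the processing of p100, the product of Nfkb2, to p52, the partner of RelB. In the kidney, TWEAK signaling in tubule cells is known for its part in inflammation.

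The depth of the samples ranged from 18040966 to 51956444 exonic reads. Epithelial keratins and adhesion genes of the tubule marker list were high in all 18 samples (Krt18 at 3493 to 4939 CPM, Cdh1 at 1020 to 1459 CPM), whereas defining genes of the differentiated proximal tubule were at or near 0, with reads of Slc34a1 in 3 samples and Lrp2 at 0.0575 to 0.586 CPM. The summed tubule list was 13080 to 13685 CPM with vehicle, 11643 to 12025 CPM with TWEAK and 12678 to 13547 CPM with NIK SMI1 at 6 h, and 12150 to 12360, 9989 to 10160 and 11271 to 11378 CPM at 24 h. The summed leukocyte markers, nearly all from Cd68 and Csf1r with Ptprc at no more than 0.304 CPM, were 24.5 to 26.1 CPM with TWEAK at 24 h and 18.5 to 22.4 CPM in every other sample. Endothelial markers summed to at most 6.54 CPM and fibroblast and mural markers to at most 21.3 CPM. Transcripts of pancreatic islet, led by Ins2 and Iapp, summed to 14.9 to 31.2 CPM in all vehicle samples and all samples at 6 h, to 14.1, 0.235 and 4.42 CPM in TWEAK samples 1, 2 and 3 at 24 h, and to 0.0451 to 0.0870 CPM in the 3 samples with NIK SMI1 at 24 h. None of the 54 genes is on a marker list, and the part of these other transcripts in the results was not tested. In bulk samples, a lower level from fewer cells of a type and one from less RNA per cell cannot be told apart.

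The 54 genes comprised 48 protein-coding genes and 6 long noncoding RNAs on 17 chromosomes. Their median induction was 1.81-fold at 6 h and 1.95-fold at 24 h, against 1.97-fold and 2.07-fold for the 116 genes with a share of 40% or more at both times. By this measure, which adds 0.1 CPM, induction reached 8.16-fold for Il23a at 24 h, and 29 of the 54 genes were induced less than 2-fold at 24 h. Their median share removed was 25.4% at 6 h and 27.9% at 24 h, against 59.9% and 60.8% for the 116 genes. These shares follow from the choice of the genes and carry no test. Per length of transcript, on the scale of RPKM (CPM per kilobase of exon), the level with TWEAK at 24 h ran from 0.194 ± 0.02396 RPKM for Tnfsf15 to 142 ± 3.79 RPKM for Pdgfb. With vehicle at 6 h the median level of the 54 genes was 4.62 RPKM. It was 2.27 RPKM for the 116 genes, 3.33 RPKM for the 91 genes with such a share at 1 time, and 6.52 RPKM for all tested genes. The median exonic length of the 54 genes was 4159 bases, compared with 3818, 3416 and 3081 bases in the same order.

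**Figure D1:**
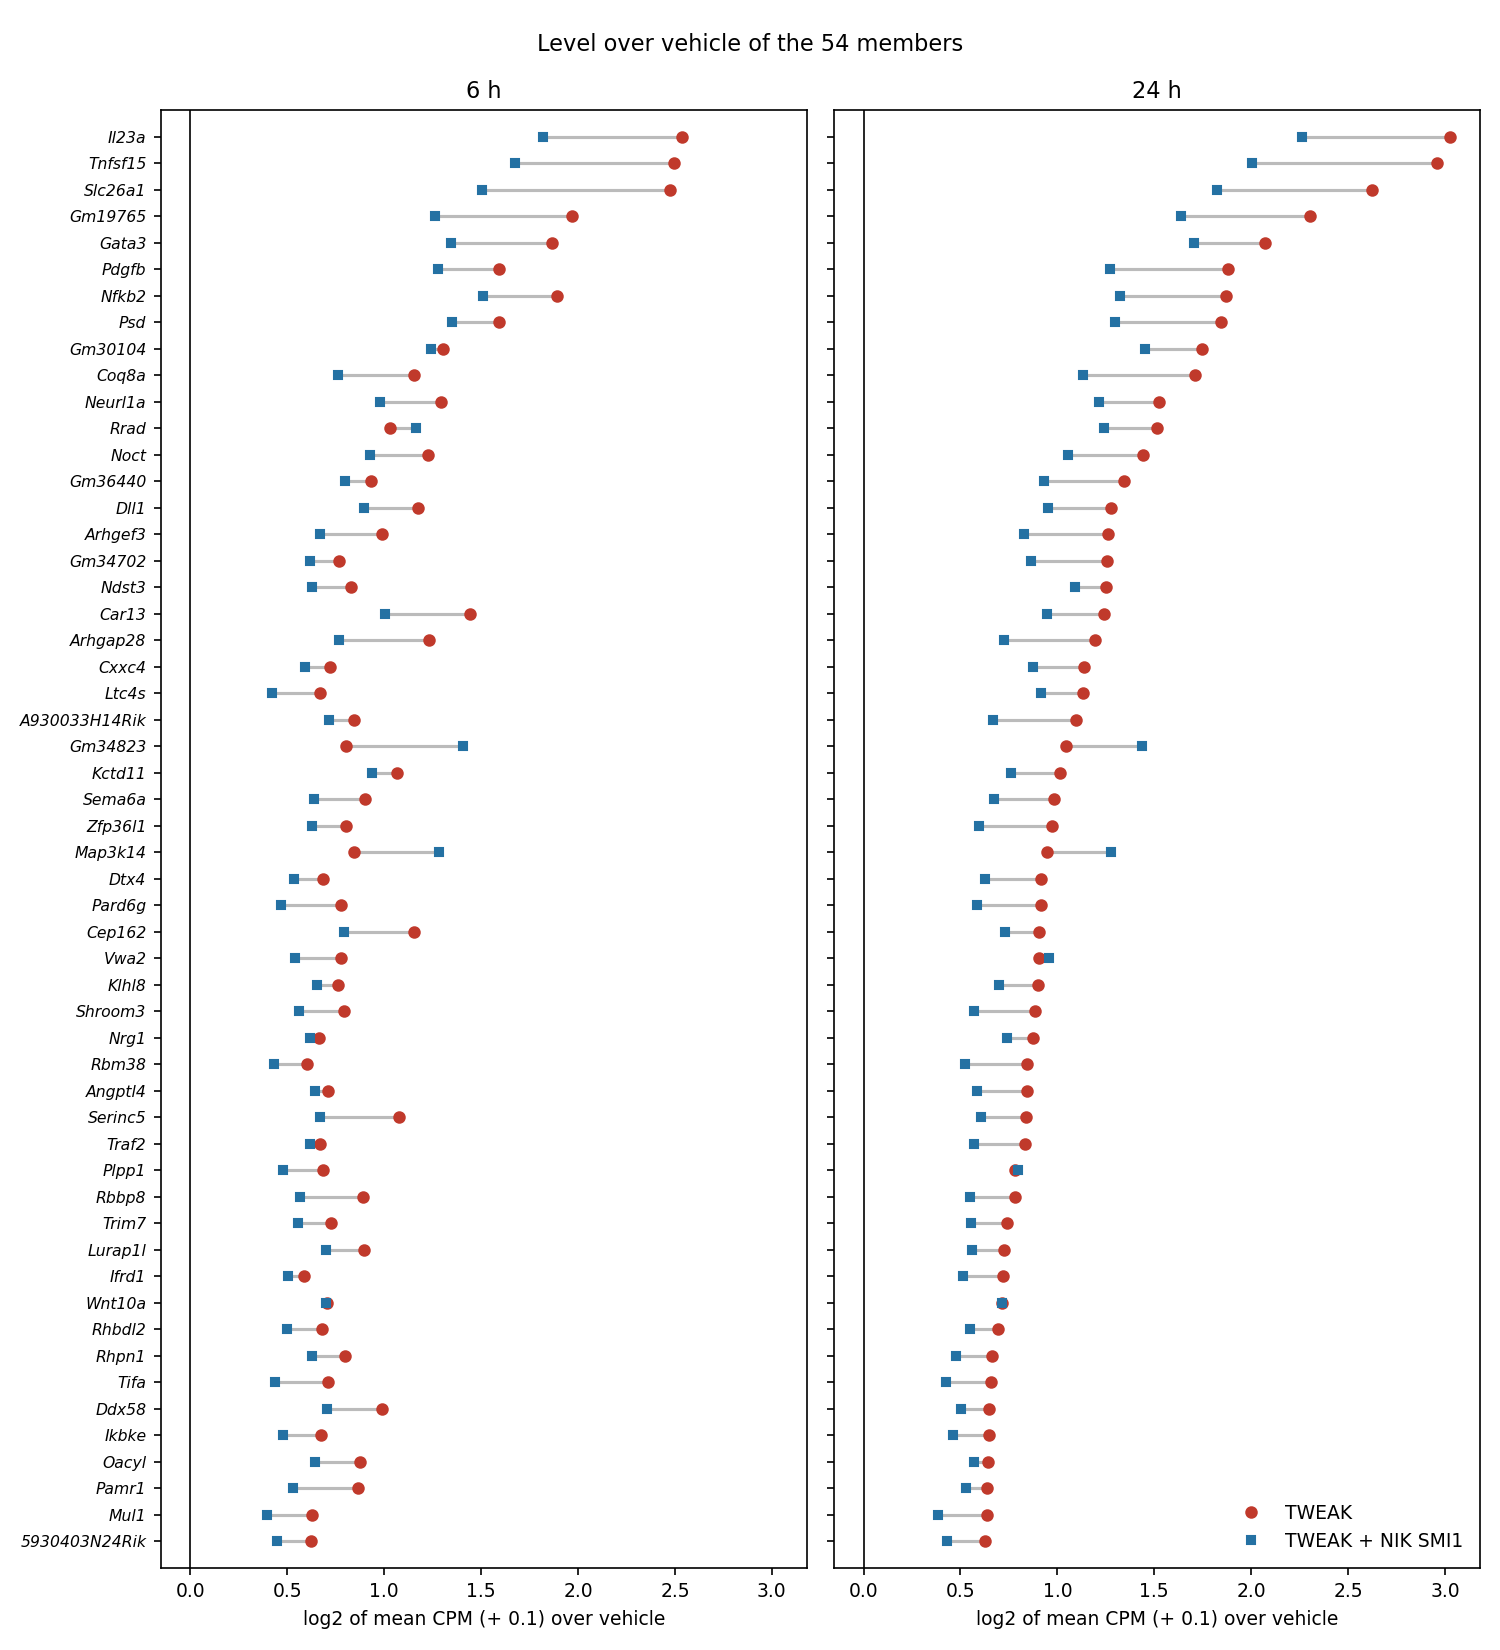
Level of each of the 54 genes with TWEAK (circles) and with TWEAK and NIK SMI1 (squares) on the x axis, as the log2 ratio of mean CPM (3 samples, 0.1 added) to vehicle, at 6 h (left) and 24 h (right), ordered by the ratio with TWEAK at 24 h. Every square lies to the right of 0, and the squares of Map3k14 and Gm34823 lie to the right of their circles at both times.

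The rule limits the share removed and does not require that NIK SMI1 had no effect. In edgeR's quasi-likelihood test with Benjamini-Hochberg adjustment over all tested genes, TWEAK with NIK SMI1 differed from TWEAK with a lower level in 28 of the 54 genes at 6 h (all tested genes: 5.70%) and in 36 at 24 h (all tested genes: 8.29%). A higher level was called in 2 at 6 h (Map3k14 and Gm34823) and in 1 at 24 h (Map3k14), against 5.34% and 10.2% of all tested genes. Both times gave a lower level for 25 genes, 6 h alone for 3, 24 h alone for 11 and neither for 15. Without overlap between the groups, every sample with NIK SMI1 lay below every TWEAK sample for 32 genes at 6 h (all tested genes: 12.1%) and for 41 at 24 h (15.0%). The rule used this contrast, so nothing is read from these counts.

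TWEAK with NIK SMI1 was next compared with vehicle. The test called 50 of the 54 genes higher at 6 h and 52 at 24 h, where 7.23% and 8.07% of all tested genes were called higher. A930033H14Rik and Pamr1 were not called at either time, nor Tifa and Gm36440 at 6 h. Every sample with NIK SMI1 lay above every vehicle sample for 53 genes at 6 h and for 53 at 24 h, against 12.2% and 17.7% of all tested genes. For TWEAK against vehicle, 53 genes were called higher at 6 h and 54 at 24 h, with 11.7% and 18.3% of all tested genes called higher. A930033H14Rik was the gene not called for TWEAK at 6 h. These directions are also set by the rule.

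The lists of NF-κB genes held 4 members. Of the 12 tested genes of the TWEAK receptor and non-canonical list, 3 were members (Nfkb2, Map3k14 and Traf2), and TWEAK raised 7 and lowered 0 at 6 h and raised 7 and lowered 2 at 24 h. Of all tested genes, TWEAK lowered 12.0% at 6 h and 20.7% at 24 h, and the shares raised are given above. Of the 18 canonical subunits, IκBs and IKK genes, 1 was a member (Ikbke), with 9 raised and 0 lowered at 6 h and 11 raised and 1 lowered at 24 h. None of the 16 genes of A20, TNIP and TRAF feedback was a member. TWEAK raised 11 and lowered 0 of them at 6 h and raised 10 and lowered 2 at 24 h. Only sustained genes could be members, and 54 of the 261 sustained genes were. On this feedback list, 4 genes were sustained with a share at or above the limit at both times, and 0 at 1 time. Members were found on 3 of the 15 lists of pathway and immune genes, the third being cytokines (Il23a and Tnfsf15 of 18 tested). Among the 16 tested chemokines, 14 TNF receptors, 12 leukocyte adhesion molecules and 19 genes of MHC class I and the immunoproteasome there was no member. Sustained genes with a share at or above the limit at both times numbered 1, 2, 2 and 1 on these lists, in the order named. Those at or above it at 1 time numbered 3, 0, 1 and 0. With so few sustained genes, the lack of members does not set these lists or the feedback list apart. No test of the differences between lists was made.

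Nfkb2 (Entrez Gene 18034), which encodes p100, the substrate of the NIK pathway, had the highest level per length of the NF-κB genes in the set, 97.03 ± 2.79 RPKM with TWEAK at 24 h. At 6 h its level was 139.6, 151 and 147 CPM with vehicle, 545, 521 and 557 CPM with TWEAK, and 412, 429 and 404 CPM with TWEAK and NIK SMI1. At 24 h it was 132, 137 and 126 CPM with vehicle, 493, 482 and 468 CPM with TWEAK, and 329, 327 and 333 CPM with TWEAK and NIK SMI1. The 3 groups did not overlap at either time, and the means with NIK SMI1 stood closer to those with TWEAK than to those with vehicle. Induction was 3.71-fold and 3.65-fold, and the share removed was 20.2% ± 2.29 at 6 h and 29.1% ± 0.769 at 24 h. For shares, ± is the SD over the 3 samples with NIK SMI1, each set against the means of the other groups. For levels in CPM or RPKM, here and above, ± is the SD of the 3 samples of the group named. For log2 changes it is the SE.

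Map3k14 (Entrez Gene 53859) encodes NIK, the target of the inhibitor, and was induced by TWEAK and raised further in its presence. The samples at 6 h held 51.4, 53.1 and 57.9 CPM with vehicle, 94.04, 96.5 and 102 CPM with TWEAK, and 132, 141 and 122 CPM with TWEAK and NIK SMI1. Those at 24 h held 56.2, 60.2 and 55.6 CPM with vehicle, 118, 109 and 106 CPM with TWEAK, and 132, 145 and 139.6 CPM with TWEAK and NIK SMI1. At both times every sample with NIK SMI1 lay above every TWEAK sample, and every TWEAK sample above every vehicle sample. The share removed was accordingly negative, -51.4% ± 12.1 and -34.4% ± 6.96. RNA levels say nothing on the amount of NIK protein, which was not measured here.

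Traf2, an adaptor of the complex that keeps NIK degraded, differed in its response to NIK SMI1 between the times in the interaction test of edgeR, but the call was lost without the filter on low counts and in 10 of the 12 fits that left out 1 sample. With TWEAK its level was 67.9, 65.8 and 70.6 CPM at 6 h and 80.8, 78.5 and 76.96 CPM at 24 h. In the presence of NIK SMI1 it was 65.6, 68.8 and 62.4 CPM and 66.5, 66.4 and 63.99 CPM. The groups overlapped at 6 h and were apart at 24 h, and the share removed was 8.05% ± 10.6 and 31.6% ± 3.71. Vehicle samples lay between 41.6 and 44.6 CPM at both times, below all stimulated samples.

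Ikbke, a kinase related to the IKKs, was at 84.5, 96.1 and 97.4 CPM with vehicle, 147, 153 and 144 CPM with TWEAK, and 127, 131 and 129 CPM with TWEAK and NIK SMI1 at 6 h. The groups were apart, and they were so again at 24 h, with 80.7, 84.2 and 78.9 CPM with vehicle, 126, 128 and 129 CPM with TWEAK, and 115, 109.6 and 111 CPM with TWEAK and NIK SMI1. Its shares of 29.4% ± 3.09 and 28.8% ± 5.05 differed by less than the spread between the samples. Ddx58, the RNA sensor RIG-I, had the lowest ratio of inductions in the set, with 1.99-fold at 6 h and 1.57-fold at 24 h, and shares of 28.8% ± 7.94 and 22.4% ± 19.6. Tifa, a TRAF-interacting adaptor, was a weakly expressed member (1.197 ± 0.0906 RPKM with TWEAK at 24 h), and its shares of 38.2% ± 34.4 and 35.02% ± 25.1 had a spread nearly as large as the values.

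Other NF-κB genes were sustained but lost more of their induction. Nfkbia, the gene of IκBα and a classical feedback target, was induced 5.84-fold and 6.7999-fold, with 44.5% ± 2.27 and 53.6% ± 1.38 removed. Relb, the gene of the partner of p52, was under 40% at 6 h (26.1% ± 5.28) and above it at 24 h (50.1% ± 1.78). The same held for Birc3, the gene of a cIAP, with 33.1% ± 1.45 and 42.6% ± 5.36, and for Nfkb1, with 37.8% ± 4.86 and 48.6% ± 4.53. Traf3, the other adaptor of the NIK degradation complex, had shares of only 14.9% ± 4.61 and 18.2% ± 3.01 but was induced 1.43-fold and 1.46-fold, under the 1.5-fold required of members.

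**Figure D2:**
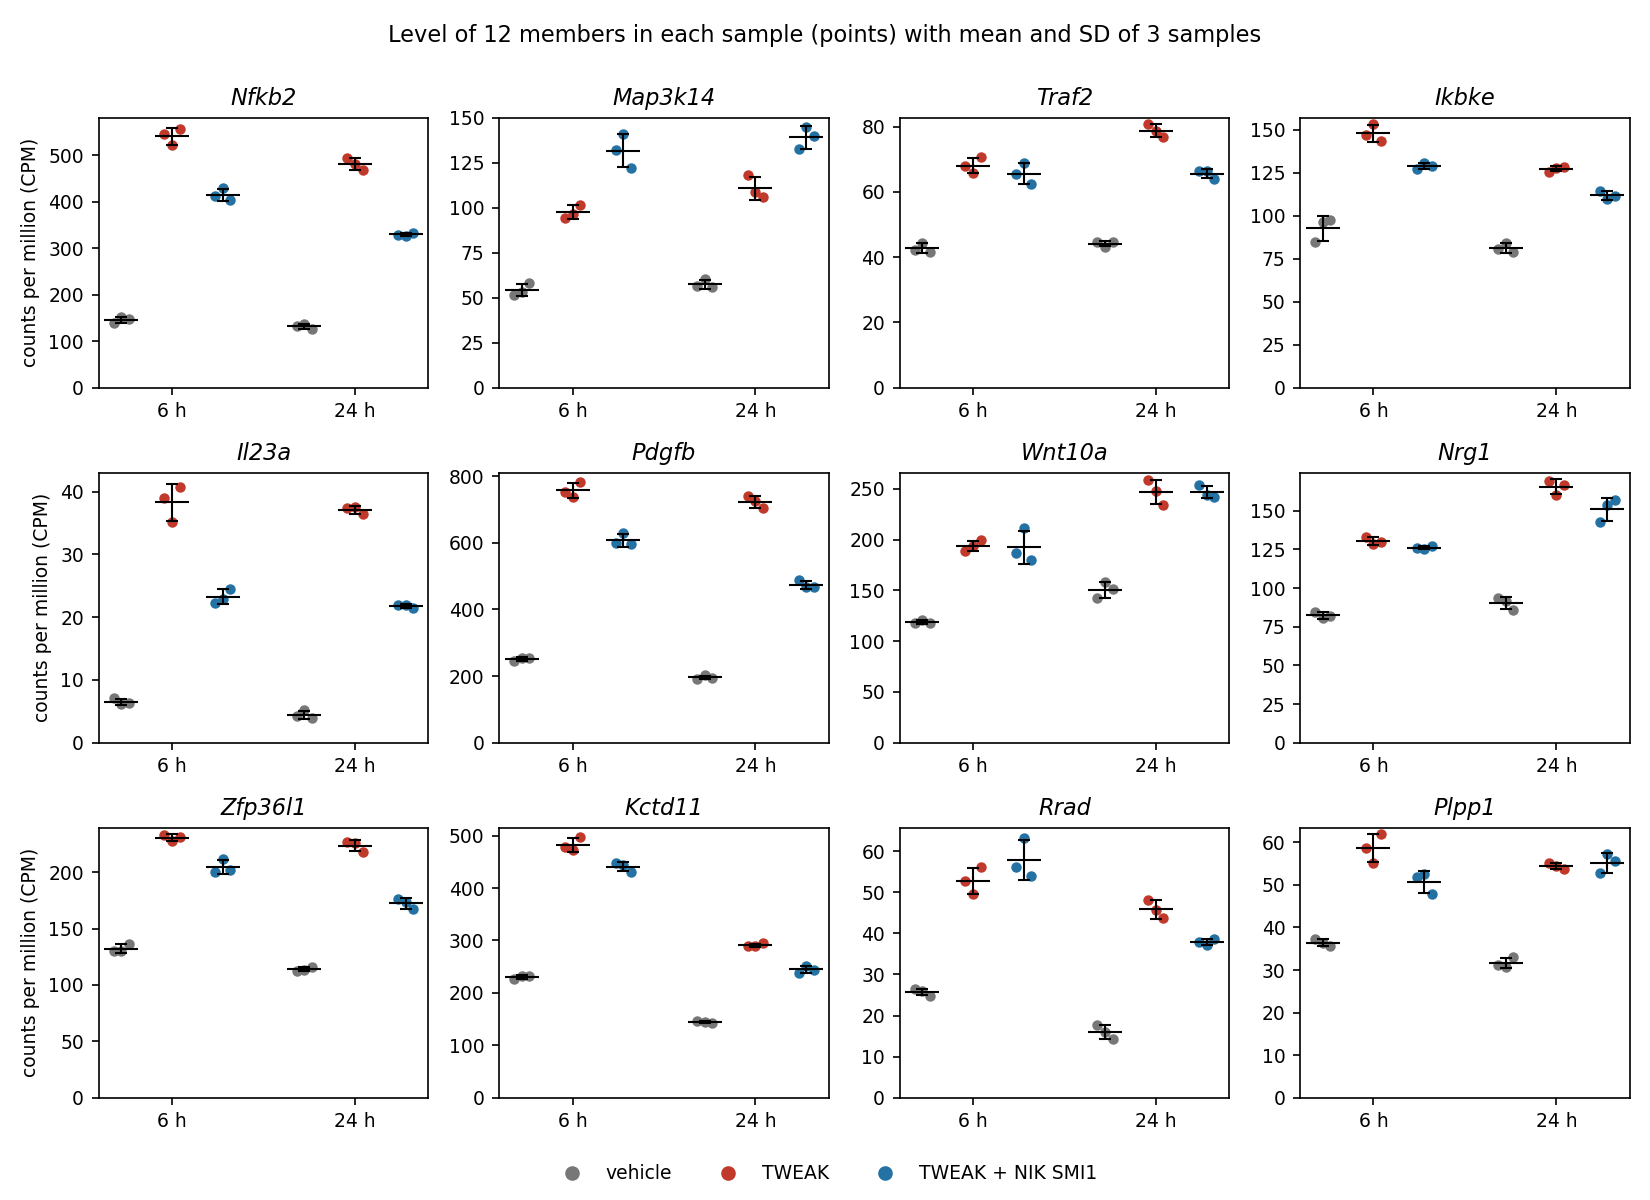
Level in CPM (y axis, from 0) of 12 of the 54 genes in every sample, with vehicle (grey), TWEAK (red) and TWEAK with NIK SMI1 (blue) at 6 h and 24 h. Points are samples, horizontal bars are means and error bars SDs of 3 samples. The blue points of Nfkb2, Il23a and Pdgfb lie between red and grey, those of Wnt10a among the red, and those of Map3k14 above the red.

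A choice of 7 promoters of members that hold a κB or an AP-1 motif is shown next, those of Nfkb2, Tifa and Ikbke of the NF-κB group and of 3 other genes, because these are the binding motifs of NF-κB and of AP-1, another factor that answers to TNF family receptors. RefSeq promoters (GRCm38.p6, 250 bases before to 50 after a transcription start) were matched for 37 of the 54 genes, with 54 promoters in all. The κB consensus was searched in its degenerate form and AP-1 as TGANTCA, both on both strands. Capitals mark κB matches in the first 5 sequences, and in the second of these also an AP-1 match between the κB matches. In the last 2 sequences they mark AP-1 matches. The promoters are those of Nfkb2 (chr19:46304487-46304786 and chr19:46305445-46305744, both on the plus strand), Gm30104 (chr1:131733619-131733918, minus strand), Rhbdl2 (chr4:123787625-123787924, plus strand), Tifa (chr3:127790407-127790706, plus strand), Ikbke (chr1:131279514-131279813, minus strand) and Zfp36l1 (chr12:80112964-80113263, minus strand).
Nfkb2, first start: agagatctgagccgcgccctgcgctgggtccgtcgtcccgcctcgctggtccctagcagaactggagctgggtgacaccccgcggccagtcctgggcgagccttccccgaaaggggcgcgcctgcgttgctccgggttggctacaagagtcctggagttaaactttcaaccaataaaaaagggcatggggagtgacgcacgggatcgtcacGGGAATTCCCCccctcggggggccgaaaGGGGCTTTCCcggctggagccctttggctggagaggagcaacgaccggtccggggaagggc
Nfkb2, second start: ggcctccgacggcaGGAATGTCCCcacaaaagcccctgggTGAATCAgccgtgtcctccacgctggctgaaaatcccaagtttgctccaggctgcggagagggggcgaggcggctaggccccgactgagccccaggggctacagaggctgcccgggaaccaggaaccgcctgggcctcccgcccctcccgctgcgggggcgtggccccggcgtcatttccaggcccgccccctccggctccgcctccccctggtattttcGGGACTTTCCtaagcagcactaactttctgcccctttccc
Gm30104: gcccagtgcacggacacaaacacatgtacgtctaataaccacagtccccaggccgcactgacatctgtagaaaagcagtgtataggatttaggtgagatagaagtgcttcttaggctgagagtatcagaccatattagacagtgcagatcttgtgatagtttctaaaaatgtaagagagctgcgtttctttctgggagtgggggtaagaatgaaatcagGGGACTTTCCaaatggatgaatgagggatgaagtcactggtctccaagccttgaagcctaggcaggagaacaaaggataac
Rhbdl2: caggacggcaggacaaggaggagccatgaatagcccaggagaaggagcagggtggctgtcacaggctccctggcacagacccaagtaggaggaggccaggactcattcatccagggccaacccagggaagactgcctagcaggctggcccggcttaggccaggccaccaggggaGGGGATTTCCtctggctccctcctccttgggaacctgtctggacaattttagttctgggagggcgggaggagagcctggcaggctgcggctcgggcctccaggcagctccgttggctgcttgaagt
Tifa: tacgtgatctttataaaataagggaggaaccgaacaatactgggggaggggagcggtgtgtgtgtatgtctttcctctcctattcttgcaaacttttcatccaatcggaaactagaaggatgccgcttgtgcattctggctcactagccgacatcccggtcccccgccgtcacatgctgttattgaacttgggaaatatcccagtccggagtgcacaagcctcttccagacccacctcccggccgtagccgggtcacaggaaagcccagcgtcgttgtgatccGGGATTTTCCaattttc
Ikbke: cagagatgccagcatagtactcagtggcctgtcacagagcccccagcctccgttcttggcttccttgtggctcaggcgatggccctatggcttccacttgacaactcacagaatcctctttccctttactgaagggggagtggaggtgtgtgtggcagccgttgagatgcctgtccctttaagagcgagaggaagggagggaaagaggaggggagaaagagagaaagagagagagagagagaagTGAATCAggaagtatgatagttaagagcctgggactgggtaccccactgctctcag
Zfp36l1: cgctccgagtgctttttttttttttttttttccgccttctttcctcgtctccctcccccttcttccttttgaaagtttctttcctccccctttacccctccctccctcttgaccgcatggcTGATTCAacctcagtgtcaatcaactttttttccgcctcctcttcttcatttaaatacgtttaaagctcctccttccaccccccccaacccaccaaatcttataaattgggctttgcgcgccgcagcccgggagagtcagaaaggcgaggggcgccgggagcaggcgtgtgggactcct

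At least 1 κB match was present in the promoters of 7 of the 37 genes (18.9%): Nfkb2, Tifa, Dll1, Neurl1a, Rhbdl2, Trim7 and Gm30104. The share was 23.3% of the genes with a share removed of 40% or more at both times and 16.9% of those at 1 time. It was 12.5% of all tested genes and 9.55% of all genes in the table. Nfkb2 held 5 of the 11 distinct matches, of which the run shown in capitals at 39 bases before its first start holds 2 that overlap. An AP-1 match was present for 10 of the 37 genes (27.0%), namely Nfkb2, Ikbke, Dll1, Zfp36l1, Rbm38, Kctd11, Coq8a, Slc26a1, Rhbdl2 and Gm19765. The other sets had 9.30%, 1.54%, 6.71% and 8.97%, in the same order as for κB. Nfkb2 held both motifs in the same promoter, whereas Dll1 and Rhbdl2 held them in promoters of different starts. A match is a stretch of letters and was not tested for binding, and for these shares no test was made.

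The ligands and secreted proteins of the set included Il23a and Tnfsf15, which had the largest fitted inductions by edgeR among the members at both times. Il23a (Entrez Gene 83430) encodes the p19 subunit of interleukin-23, a cytokine that sustains T helper 17 responses. Its level was 7.096, 6.23 and 6.26 CPM with vehicle, 39.01, 35.1 and 40.7 CPM with TWEAK, and 22.3, 22.96 and 24.6 CPM with TWEAK and NIK SMI1 at 6 h, and 4.21, 5.17 and 4.002 CPM with vehicle, 37.4, 37.6 and 36.4 CPM with TWEAK, and 21.9, 22.01 and 21.4 CPM with TWEAK and NIK SMI1 at 24 h. The groups were far apart at both times. Induction was 5.79-fold and 8.16-fold, so that a share of only 28.2% ± 2.81 and 25.3% ± 0.722 on the log2 scale still meant that the mean level fell from 37.1 ± 0.642 CPM to 21.8 ± 0.3302 CPM at 24 h. Tnfsf15, the TNF family ligand TL1A, was induced 5.63-fold and 7.77-fold by the measure of the rule, which adds 0.1 CPM. Its vehicle level was 0.162, 0.0802 and 0.212 CPM at 6 h and 0.0935, 0.0507 and 0.0488 CPM at 24 h, the latter from 1 to 4 reads per sample, so that these folds depend on the added value. The fitted log2 changes of edgeR, which depend on its prior count, were 3.04 ± 0.37 (SE) and 3.96 ± 0.49. With TWEAK it was at 1.15, 1.05 and 1.74 CPM at 6 h and 1.19, 1.03 and 1.31 CPM at 24 h. With NIK SMI1 it was at 0.751, 0.798 and 0.554 CPM and 0.293, 0.667 and 0.715 CPM, below all TWEAK samples of the same time, and the shares were 32.9% ± 9.82 and 32.3% ± 19.7.

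Pdgfb (Entrez Gene 18591), a growth factor for mesenchymal cells, was the member with the highest level per length with TWEAK at 24 h, whereas with TWEAK at 6 h Kctd11 was higher (170.1 ± 5.77 RPKM against 149 ± 5.295 RPKM). It was at 245, 254 and 253 CPM with vehicle, 754, 737 and 781 CPM with TWEAK, and 598, 629 and 595 CPM with TWEAK and NIK SMI1 at 6 h. The values at 24 h were 192, 202 and 195 CPM with vehicle, 739.7, 725 and 704 CPM with TWEAK, and 487, 466 and 468 CPM with TWEAK and NIK SMI1. The samples with NIK SMI1 were below the TWEAK samples at both times and more so at 24 h, with shares of 19.97% ± 2.83 and 32.4% ± 1.89.

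Wnt10a (Entrez Gene 22409), a secreted WNT ligand, was the member whose level differed least between TWEAK with and without NIK SMI1 over both times. At 6 h it was at 118, 121 and 118 CPM with vehicle, 189, 193 and 199 CPM with TWEAK, and 187, 211 and 179.8 CPM with TWEAK and NIK SMI1. The level at 24 h was 142, 158 and 151 CPM with vehicle, 259, 248 and 235 CPM with TWEAK, and 254, 244 and 242 CPM with TWEAK and NIK SMI1. The samples with and without NIK SMI1 overlapped at both times and all lay above the vehicle samples, and the share removed was 1.23% ± 16.96 and 0.0109% ± 5.13.

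Nrg1, a ligand of ERBB receptors, came next among the ligands. With TWEAK it was at 133, 128 and 129 CPM at 6 h and 169, 160.1 and 167 CPM at 24 h, and with NIK SMI1 at 126, 125 and 127 CPM and 142, 154 and 157 CPM. The highest sample with NIK SMI1 was just below the lowest TWEAK sample at both times, and the shares were 7.09% ± 1.91 and 15.1% ± 8.32. The Notch ligand Dll1 was induced 2.26-fold and 2.42-fold with shares of 23.6% ± 29.5 and 25.3% ± 5.34. At 6 h its samples with NIK SMI1 were at 5.8998, 6.19 and 9.201 CPM, of which the last lay above all TWEAK samples. The shares of Angptl4, an inhibitor of lipoprotein lipase, were 10.05% ± 20.3 and 30.3% ± 5.19, and those of Sema6a, a semaphorin, 29.2% ± 0.705 and 31.5% ± 9.11. Of the 8 genes of this group, the test called 3 lower with NIK SMI1 at 6 h and 7 at 24 h, with Wnt10a as the exception.

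Among regulators of transcription, chromatin and RNA, the T cell and kidney transcription factor Gata3 was induced most. It was at 0.444, 0.203 and 0.488 CPM with vehicle, 1.89, 2.05 and 1.79 CPM with TWEAK and 1.38, 1.51 and 1.49 CPM with NIK SMI1 at 24 h, without overlap. These levels are low, and the difference between TWEAK with and without NIK SMI1 was not called at either time. Zfp36l1, which binds AU-rich elements and promotes decay of the mRNA, was at 130.2, 130.0 and 137 CPM with vehicle, 233, 228 and 231 CPM with TWEAK, and 201, 212 and 202 CPM with TWEAK and NIK SMI1 at 6 h. At 24 h it was at 112, 114 and 116 CPM with vehicle, 226, 226 and 218 CPM with TWEAK, and 177, 173 and 167 CPM with TWEAK and NIK SMI1. Its groups were apart, and its share rose from 21.4% ± 5.17 to 38.5% ± 4.12. Noct, a circadian phosphatase, was induced 2.34-fold and 2.72-fold, with shares of 24.3% ± 0.481 and 26.9% ± 8.51. Ifrd1, a transcriptional coregulator, sat at the edge of the rule with an induction of 1.501-fold at 6 h. The RNA-binding protein gene Rbm38, the CXXC zinc finger gene Cxxc4 and Rbbp8, which encodes the DNA end resection factor CtIP, had shares between 17.7% and 38.0%. With NIK SMI1, 4 of these 7 genes were called lower at 6 h and 6 at 24 h.

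Ubiquitin ligases and their adaptors formed a further group of 6. Kctd11, an adaptor of cullin ligases, was the member of this group with the highest level per length with TWEAK at 24 h (103 ± 1.03 RPKM). It was at 226, 232 and 233 CPM with vehicle, 477, 473 and 498 CPM with TWEAK, and 448, 444 and 431 CPM with TWEAK and NIK SMI1 at 6 h. At 24 h the samples held 146, 144 and 143 CPM with vehicle, 289.6, 289.5 and 295 CPM with TWEAK, and 238, 252 and 244 CPM with TWEAK and NIK SMI1. The samples with NIK SMI1 lay close below the TWEAK samples, with shares of 12.2% ± 2.61 and 24.8% ± 4.07, while the level of all 3 groups was lower at 24 h than at 6 h. Dtx4, a Deltex ligase, was induced 1.61-fold and 1.89-fold, with shares of 21.9% ± 3.25 and 31.4% ± 2.11. Neurl1a, a Neuralized ligase, was induced 2.45-fold and 2.88-fold, with shares of 24.2% ± 29.4 and 20.3% ± 8.91. Trim7, Klhl8 and the mitochondrial ligase Mul1 were induced 1.55-fold to 1.87-fold. The test called 4 of the 6 genes lower with NIK SMI1 at 6 h and 5 at 24 h.

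Genes of small GTPases, the cytoskeleton and cell polarity made up 8 members. Rrad (Entrez Gene 56437), a small GTPase of the RGK family, turned from no reduction to a reduction between the times. At 6 h it was at 26.3, 26.1 and 24.8 CPM with vehicle, 52.7, 49.5 and 56.04 CPM with TWEAK, and 56.2, 63.3 and 54.04 CPM with TWEAK and NIK SMI1. At 24 h it was at 17.6, 16.03 and 14.3 CPM with vehicle, 48.1, 45.8 and 43.6 CPM with TWEAK, and 37.97, 37.3 and 38.6 CPM with TWEAK and NIK SMI1. The groups with and without NIK SMI1 overlapped at 6 h, where the mean was higher with the inhibitor, and were apart at 24 h. The share removed was -12.9% ± 11.5 and 17.97% ± 1.65.

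Arhgef3, a guanine nucleotide exchange factor, was at 255, 257 and 264 CPM with TWEAK and 195, 191 and 189 CPM with NIK SMI1 at 24 h, without overlap, and had shares of 32.7% ± 2.24 and 34.3% ± 1.88. Shroom3, an actin regulator of epithelial shape, was induced 1.73-fold and 1.85-fold from 26.1 ± 0.874 RPKM with vehicle at 6 h. Its shares were 28.97% ± 4.33 and 35.6% ± 3.93. Pard6g, a component of the apical polarity complex, was the member closest to the limit at 6 h, with 39.8% ± 5.51. Arhgap28, a GTPase-activating protein, was close to it at both times (37.8% ± 7.69 and 39.3% ± 18.3). The shares of Cep162, a protein of the ciliary base, were 31.2% ± 10.8 and 19.5% ± 2.66, and those of Rhpn1 were 21.1% ± 13.7 and 28.4% ± 10.2. In this group 5 genes were called lower with NIK SMI1 at 6 h and 7 at 24 h.

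The 9 genes of transport, lipids and enzymes held the gene with the largest reduction by NIK SMI1 at 6 h on the log2 scale of the test among the members. Slc26a1, a sulfate transporter, was at 6.804, 5.85 and 6.47 CPM with vehicle, 37.1, 33.6 and 36.8 CPM with TWEAK, and 18.9, 17.4 and 18.4 CPM with TWEAK and NIK SMI1 at 6 h. At 24 h it was at 6.95, 8.02 and 7.08 CPM with vehicle, 44.6, 46.4 and 46.5 CPM with TWEAK, and 26.8, 26.5 and 25.6 CPM with TWEAK and NIK SMI1. The groups were apart, and because induction was 5.55-fold and 6.17-fold, shares of 39.2% ± 2.36 and 30.5% ± 1.35 correspond to a log2 change of -0.97 ± 0.06 (SE) and -0.81 ± 0.05 against TWEAK. On the linear scale of the share, the difference of TWEAK and NIK SMI1 levels over that of TWEAK and vehicle levels, 26 of the 54 genes reached 40% at 1 time or both and 28 did not. Slc26a1, Nfkb2, Il23a, Pdgfb, Tnfsf15 and Zfp36l1 were among the 26, and Map3k14, Traf2, Ikbke, Wnt10a, Nrg1, Kctd11 and Rrad among the 28.

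Plpp1, a lipid phosphate phosphatase, was at 58.7, 55.2 and 61.9 CPM with TWEAK and 51.9, 52.7 and 47.8 CPM with NIK SMI1 at 6 h, without overlap. At 24 h it was at 55.1, 54.4 and 53.7 CPM and 52.7, 57.1 and 55.7 CPM, with overlap, so that its share went from 29.99% ± 10.8 to -2.53% ± 7.68. The log2 difference between the times, 0.22 ± 0.07 (SE), was not called in the interaction test of edgeR. Serinc5, a restriction factor of retroviruses, was induced 2.11-fold and 1.79-fold with shares of 38.01% ± 3.61 and 27.4% ± 4.62. Coq8a, needed for coenzyme Q synthesis, had an induction of 2.22-fold and 3.27-fold, the largest ratio of inductions in the set. Ltc4s, the leukotriene C4 synthase gene, had shares of 36.8% ± 9.08 and 19.2% ± 6.19. Ndst3 modifies heparan sulfate, Rhbdl2 is a rhomboid protease, Car13 a carbonic anhydrase and Oacyl an acyltransferase, and their shares lay between 11.5% and 30.5%. The test called 6 of the 9 genes lower at 6 h and 4 at 24 h.

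The last 10 members were uncharacterised or noncoding, or had no settled role in these cells. Gm30104, a long noncoding RNA whose promoter is shown above, was at 9.31, 8.68 and 6.88 CPM with vehicle, 25.1, 30.8 and 28.3 CPM with TWEAK and 24.2, 21.9 and 22.5 CPM with NIK SMI1 at 24 h. Every stimulated sample lay above the vehicle samples, and the shares were 4.58% ± 15.8 and 16.9% ± 4.17. Vwa2, which encodes a protein of the extracellular matrix, had a share of 30.4% ± 13.3 at 6 h and -6.04% ± 14.8 at 24 h. Gm19765 was induced 3.91-fold and 4.94-fold with shares of 35.99% ± 10.9 and 28.96% ± 14.6, Lurap1l had 21.6% ± 7.56 and 22.9% ± 4.19, and 5930403N24Rik had 27.7% ± 14.1 and 31.3% ± 6.87. A930033H14Rik, Pamr1 and Gm36440 were under 2.7 CPM in every sample, and the shares of 15.2% ± 75.2 for the first at 6 h and 16.9% ± 73.2 for the second at 24 h have wide spreads. For these 10 genes the test called 3 lower with NIK SMI1 at 6 h and 4 at 24 h.

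**Figure D3:**
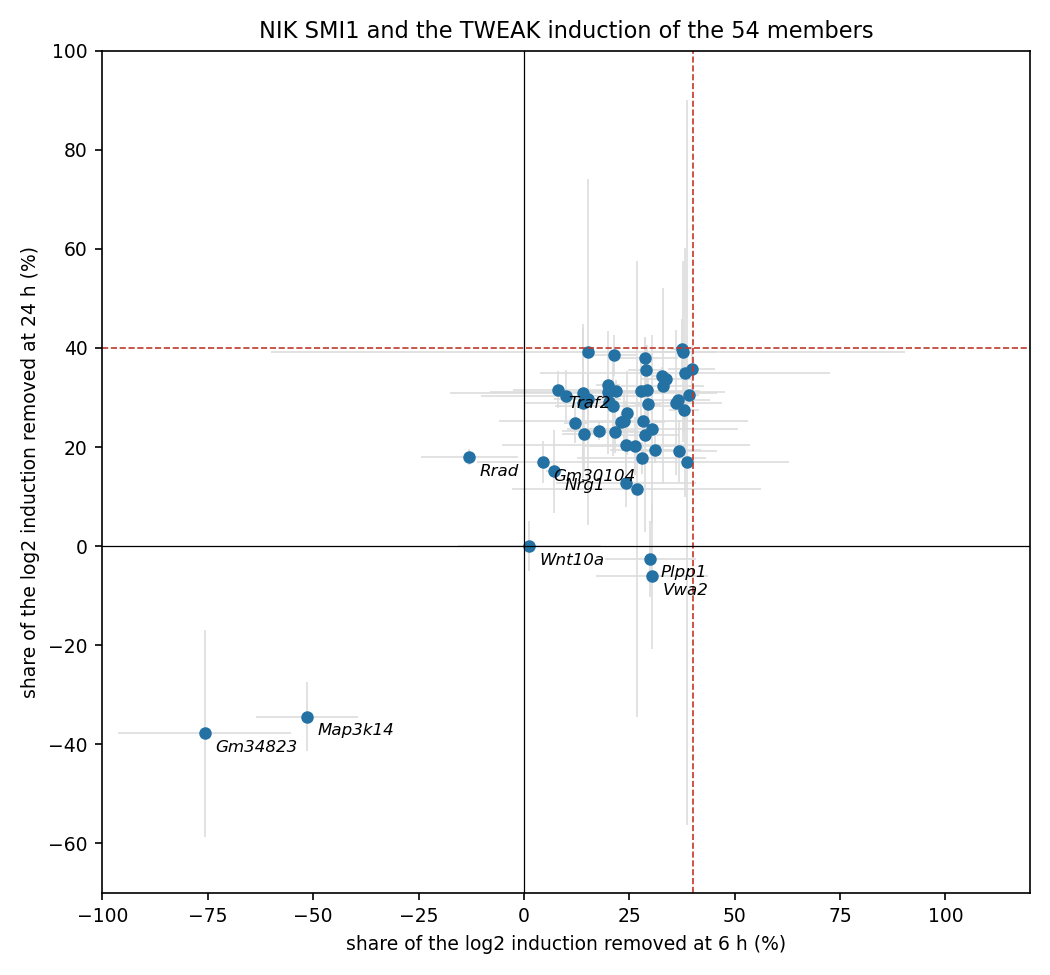
Share of the log2 induction by TWEAK that was removed by NIK SMI1 at 6 h (x axis, percent) and 24 h (y axis, percent) for the 54 genes. Grey bars are SDs over the 3 samples with NIK SMI1, and dashed lines mark the limit of 40% used to choose the genes, so that no point lies beyond them. Map3k14 and Gm34823 are below 0 at both times, Rrad only at 6 h, and Plpp1 and Vwa2 only at 24 h.

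Between 6 h and 24 h the share removed was higher at 24 h for 32 members and lower for 22. In the interaction test of edgeR, the effect of NIK SMI1 was more negative at 24 h for 4 genes (all tested genes: 1.62%) and less negative for 0 (all tested genes: 3.11%). The 4 genes were Pdgfb with a log2 difference of -0.29 ± 0.05 (SE), Rrad with -0.40 ± 0.09, Traf2 with -0.21 ± 0.06 and Zfp36l1 with -0.20 ± 0.05. The call of Traf2 was the one lost when samples were left out, as given above, and those of the other 3 genes held in every alternative. The rule limits the effect at each time, so these are descriptions. Induction by TWEAK was larger at 24 h than at 6 h for 40 members and smaller for 14. The test called it larger for 10 (all tested genes: 3.24%), among them Nrg1, Dtx4, Arhgef3 and Il23a. It was called smaller for 2, Ddx58 and Serinc5 (all tested genes: 5.67%). The rule also bounded the ratio of the inductions and left more room for a larger than for a smaller induction at 24 h. Nothing is therefore read from these counts of larger and smaller induction.

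The comparison on which the rule set no threshold was that of the vehicle samples at the 2 times, which shows how the genes behaved in culture without TWEAK, although the vehicle values entered the ratios of the rule. Of the 54 genes, 18 were lower at 24 h than at 6 h (all tested genes: 14.4%) and 6 were higher (all tested genes: 15.5%). For the 116 genes with a share of 40% or more at both times, 34 were lower and 19 higher. For the 91 genes with such a share at 1 time, 29 were lower and 22 higher. The remaining 30 members did not pass the test.

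Among the genes that passed the test, the largest decreases with time in vehicle were those of Ndst3, from 11.02, 10.6 and 10.2 CPM to 6.27, 6.798 and 6.83 CPM, and of Kctd11, from 226, 232 and 233 CPM to 146, 144 and 143 CPM. Their log2 changes were -0.75 ± 0.08 (SE, adjusted p = 8.59e-08) and -0.74 ± 0.03 (adjusted p = 1.34e-15), and the samples of the times did not overlap. Rrad followed with -0.73 ± 0.07 (adjusted p = 1.4e-08), Il23a with -0.62 ± 0.10 (adjusted p = 2.28e-05), and Noct and Sema6a with -0.45 ± 0.06 and -0.45 ± 0.05. Pdgfb, Arhgef3, Zfp36l1, Plpp1, Ikbke, Ifrd1 and Nfkb2 fell by 0.21 to 0.42 on the log2 scale. Of the 18 decreases, 13 passed under every alternative.

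The other 5 decreases, of Arhgap28, Gm34702, Ltc4s, Psd and Shroom3, were lost when single vehicle samples were left out. Without vehicle 6 h sample 1, the adjusted p of edgeR was 0.103 for Arhgap28, 0.0522 for Gm34702 and 0.114 for Shroom3. Without vehicle 6 h sample 2 it was 0.0825 for Gm34702 and 0.0741 for Ltc4s, and without vehicle 6 h sample 3 it was 0.0578 for Arhgap28, 0.0621 for Ltc4s and 0.0747 for Psd. Leaving out vehicle 24 h sample 1 gave 0.226 for Ltc4s and 0.128 for Shroom3, sample 2 gave 0.0718 for Arhgap28 and 0.139 for Gm34702, and sample 3 gave 0.0713 for Arhgap28, 0.0789 for Gm34702, 0.099 for Psd and 0.0556 for Shroom3. A fit of the vehicle samples alone gave 0.0589 for Gm34702, 0.07 for Ltc4s and 0.0502 for Shroom3. All 5 genes stayed lower at 24 h in each of these fits.

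The 6 genes that rose with time in vehicle were Dll1 (0.62 ± 0.13, SE, adjusted p = 0.0005), Rhpn1 (0.61 ± 0.12), Cep162 (0.35 ± 0.07), Wnt10a (0.27 ± 0.05), Lurap1l (0.23 ± 0.05) and Rbbp8 (0.21 ± 0.05). All 6 passed under every alternative. Dll1 was at 3.63, 4.12 and 3.54 CPM and 5.66, 5.83 and 6.78 CPM in the vehicle samples, and Wnt10a at 118, 121 and 118 CPM and 142, 158 and 151 CPM, in both cases without overlap. Map3k14 and Traf2 had changes of 0.01 ± 0.06 and -0.02 ± 0.05 and did not pass the test.

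**Figure D4:**
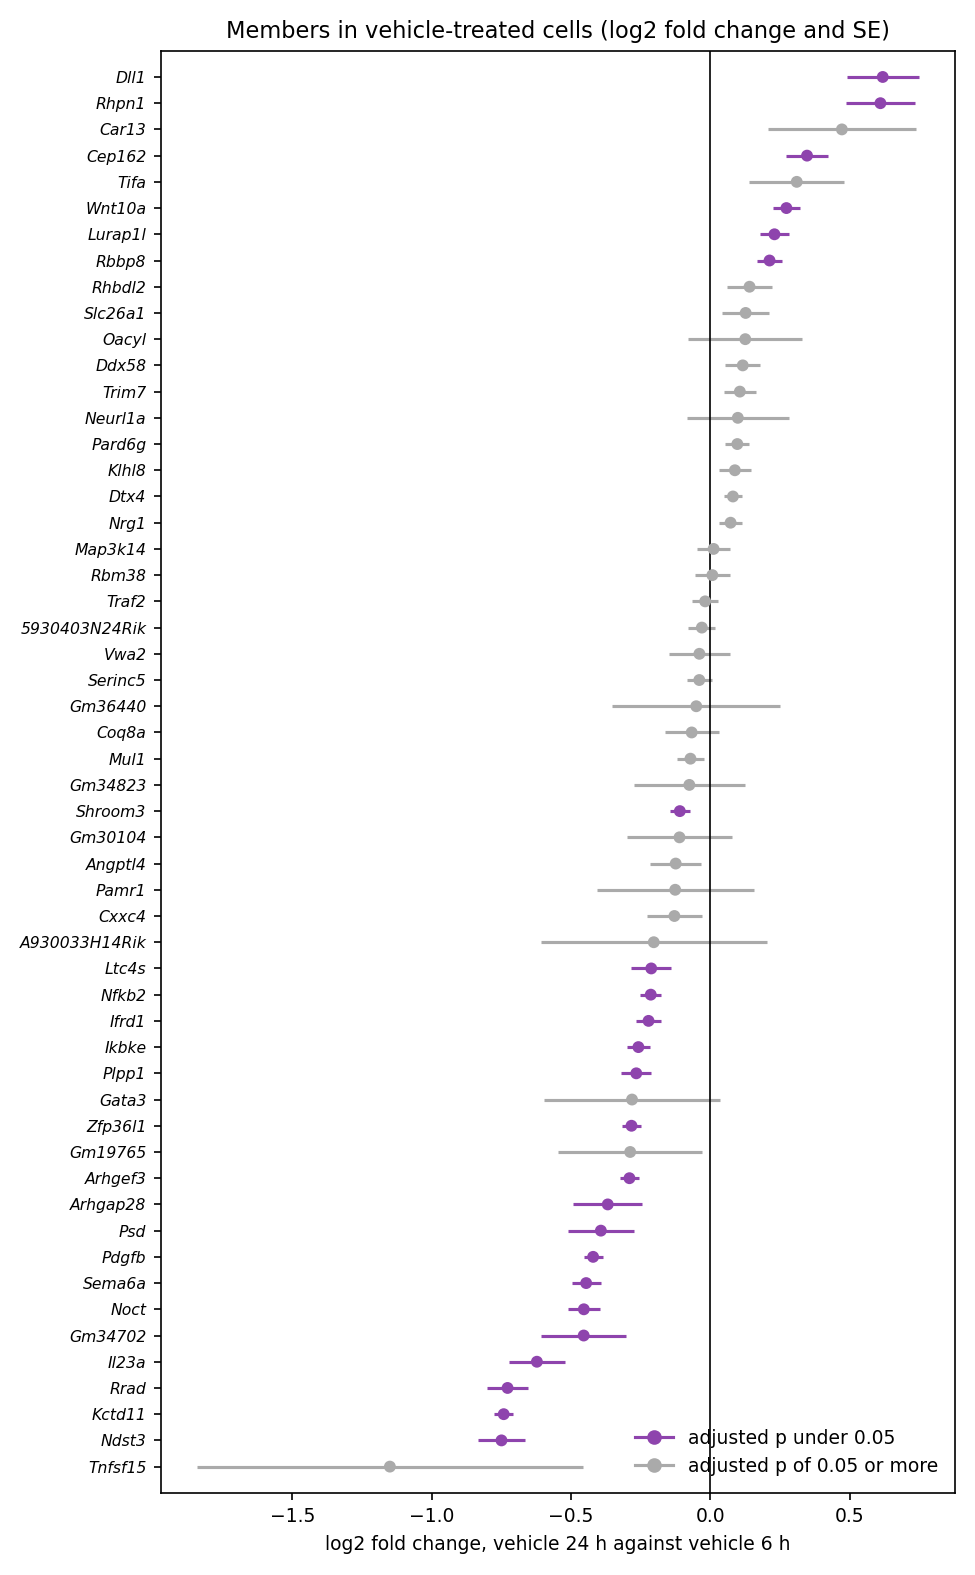
Log2 fold change of vehicle at 24 h against vehicle at 6 h (x axis) for the 54 genes, from the edgeR fit over all samples, with SEs as bars. Purple genes passed an adjusted p under 0.05, which were 18 with a lower and 6 with a higher level at 24 h.

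Because the libraries did not keep the strand of the RNA, reads from exonic bases that genes share cannot be told apart. Overlap was examined for whole gene spans in the RefSeq annotation, introns included, and not for exons. By this measure 13 of the 54 genes overlap another gene of at least 1 CPM. In 3 pairs both genes were members. Gm34823 was at 2.11% to 2.60% of the level of Map3k14 in the group means. It was the other member with a higher mean with NIK SMI1 than with TWEAK at both times, with shares of -75.8% ± 20.5 and -37.7% ± 20.9. Gm34702 was at 2.32% to 2.74% of Arhgef3 and had shares of 19.8% ± 27.8 and 31.05% ± 12.4. Nfkb2 and Psd, which encodes an exchange factor for ARF GTPases, overlap by 316 bases of their gene spans, and the CPM of Nfkb2 was 2663% to 3247% of that of Psd. Psd had shares of 15.1% ± 7.902 and 29.7% ± 5.17, close to those of Nfkb2. Whether reads of the larger genes were counted for these 3 smaller genes was not tested, so they are uncertain as separate members. A930033H14Rik overlaps Rhobtb1, a sustained gene with a share of 40% or more at 1 time, and was at 3.38% to 4.24% of its level. By contrast, Slc26a1 rose from 38.8% of the level of the overlapping Idua with vehicle at 6 h to 198% with TWEAK.

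**Figure D5:**
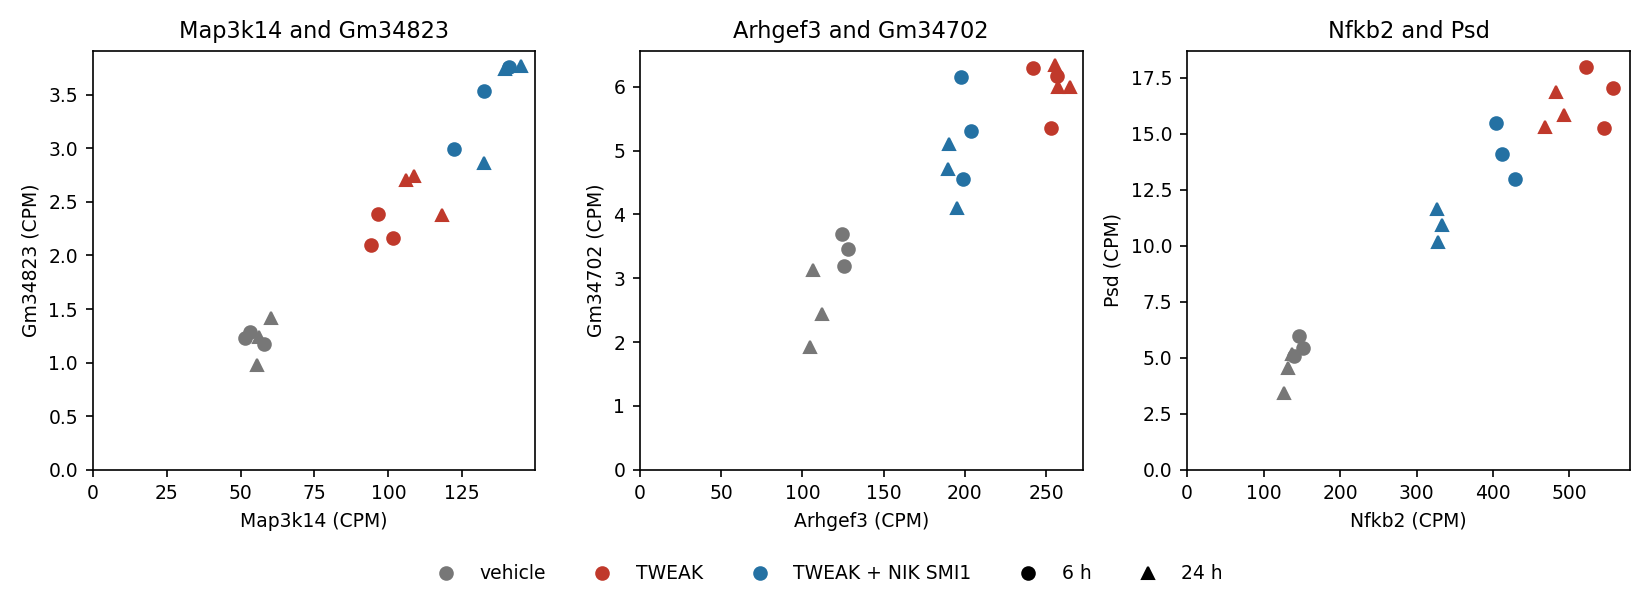
CPM of 3 pairs of members whose annotated spans overlap, Map3k14 with Gm34823, Arhgef3 with Gm34702 and Nfkb2 with Psd, in every sample (circles for 6 h, triangles for 24 h, colours for vehicle, TWEAK and TWEAK with NIK SMI1). Both axes start at 0. The group means of Gm34823 stay between 2.11% and 2.60% of Map3k14.

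Several genes lay close to the limits of the rule. At 6 h, Ifrd1 was just inside the limit of 1.5-fold induction with 1.501-fold and Gm12223 just outside with 1.49-fold. At 24 h these were 5930403N24Rik with 1.54-fold and Syne4 with 1.49-fold. For the share removed, as a fraction, Pard6g with 0.398 was just inside the limit at 6 h, and Mul1 with 0.397 and Tmem95 with 0.4004 flanked that at 24 h. Coq8a had the highest ratio of inductions in the set, 1.47, and Ddx58 the lowest, 0.790. Tnfsf15 had the lowest level with TWEAK at 24 h, 1.18 CPM. Left out in turn, the 18 samples gave sets that kept 45 to 53 of the 54 genes, and 29 genes were in all of these sets, among them Nfkb2, Map3k14, Traf2, Ikbke, Pdgfb, Wnt10a, Nrg1, Kctd11 and Rrad. TWEAK 24 h sample 2 had the fewest islet transcripts of the TWEAK samples and was closest to the samples with NIK SMI1 at 24 h, which all had almost none. Without it, 50 of the 54 genes stayed in the set and the test called 29 of the 54 lower with NIK SMI1 at 24 h. Leaving it out made the TWEAK and NIK SMI1 groups at 24 h less alike in islet transcripts. The part of these transcripts cannot be read from this fit and was not tested.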

How the data were processed

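The 18 RNASeq samples were grouped by their labels (agent, TWEAK and time). According to the methods of the study, reads were aligned with GSNAP through HTSeqGenie to the mouse genome, NCBI build 37, and uniquely aligned exonic reads were counted per gene. The deposited counts are whole reads per gene, not normalized, and the deposited RPKM values are these counts scaled to exon length and library depth, as the authors computed them. The library kit did not keep strand, and the labels and the methods differ on sequencer, read length and RNA input. Of 36528 gene IDs, 31049 matched RefSeq symbols.

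Genes with over 10 reads in at least 4 samples (15521) were fitted in edgeR 4.0.16 (R 4.3.3) with TMM scaling and 1 model over the 6 groups, tested by quasi-likelihood with Benjamini-Hochberg adjustment over all of them, and called at an adjusted p under 0.05. Standard errors were derived from the quasi-likelihood F statistic. Other steps used Python 3.11.15 and pandas 2.3.3. The members, gene lists and role groups were chosen with earlier results of these data known, and contrasts that the rule used are descriptions. Since the set has 54 genes, any member could be named, as could genes of the NF-κB lists. Alternatives were DESeq2 1.42.0, other scaling, pseudocounts, averages, filters and thresholds, and leaving out each sample. The fit was tested on simulated data. Depth covers counting error only, and 3 reads equal 0.0577 to 0.166 CPM. An exact permutation test of 3 against 3 samples cannot go below p = 0.1 and was not used.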

Additional observations from a re-analysis of the deposited data

Results flagged for a closer look

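The effect of NIK SMI1 on TWEAK-stimulated cells was stronger at 24 h than at 6 h for 4 genes in the interaction test of edgeR, with log2 differences (24 h minus 6 h) of -0.4048 for Rrad, -0.2903 for Pdgfb, -0.21 for Traf2 and -0.2002 for Zfp36l1. The rule that chose the genes limits this effect at each time, so the values are descriptions. For Traf2 the call was lost without the filter on low counts and in 10 of the 12 fits that left out 1 sample.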

How the results depend on the processing

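The size of the set depended on its thresholds. It held 26 genes with a share removed under 30%, 108 with under 50%, 17 with an induction of at least 2-fold and 28 with the share on the linear scale. Other scalings, pseudocounts, averages and filters gave 43 to 56 genes, and leaving out each sample in turn gave 47 to 59, of which 45 to 53 were among the 54. Leaving out 1 sample, the genes called lower with NIK SMI1 numbered 24 to 29 at 6 h and 29 to 35 at 24 h, and those lower with time in vehicle 14 to 16. Over the tests of single members under all alternatives, 2352 kept their side of the threshold, 84 lost and 24 gained significance, and 0 reversed. Many of these tests compared TWEAK with vehicle, where the rule set the outcome. Tests of time in vehicle and of the interaction entered only for genes called in the main fit. A change of sign was counted as a reversal only for called genes. These totals therefore do not measure how stable the results are. No paired analysis was possible because the labels give no replicate numbers.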
